A study of Homo sapiens with 18 samples.

Results

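Cholesterol and fatty acid synthesis was followed through 32 genes that were chosen by symbol. They are the enzymes that lead from acetyl-CoA through mevalonate to cholesterol, the proteins that govern the SREBP transcription factors, a sterol carrier, and the enzymes that make, elongate and desaturate fatty acids. Of the 32 genes, 31 had a row among the 57736 genes of the count table and all 31 passed the filter on low counts that left 17317 genes for testing. ACACA was not analysed here, because its symbol was paired with a gene identifier that has no row. Counts came from 18 libraries labelled as A1847 cells, an ovarian cancer cell line, sequenced from the 3′ ends of their mRNA. Each of 3 genotypes was treated either with vehicle or with 5 µg/ml tunicamycin for 8 h, and each of the 6 groups held 3 libraries. The genotypes were control cells labelled wild type, CARM1 knockout cells made with a lentiviral CRISPR vector that carried a single guide RNA, and XBP1 knockdown cells made with a lentiviral shRNA. Whether the knockout cells are a clone is not stated in the sources used here, and the labels do not say whether the control cells carried a vector. CARM1 is an arginine methyltransferase and XBP1 a transcription factor of the unfolded protein response. Tunicamycin blocks N-linked glycosylation and thereby causes endoplasmic reticulum stress.

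Cholesterol synthesis and fatty acid synthesis are controlled together by the SREBP factors, which are made as membrane proteins of the endoplasmic reticulum. When sterols are scarce, the escort protein SCAP carries SREBP to the Golgi, where proteases release the part that enters the nucleus and switches on its target genes. When sterols are plentiful, INSIG1 and INSIG2 hold SCAP and SREBP in the endoplasmic reticulum, the same membrane from which the unfolded protein response is sent. SREBF2 encodes the factor best known for the sterol genes, and SREBF1 the factors best known for the fatty acid genes. On their promoters SREBPs act together with NF-Y, which binds CCAAT, and with Sp1, which binds GC-rich sites.

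Promoters in the RefSeq table (GRCh38.p14) were matched by symbol for 28 of the 32 genes. FASN, ACAT2, SQLE and FDFT1 were without an entry. The 250 bases before each start site were searched on both strands. CCAAT was found in at least 1 promoter of 20 of the 28 genes (71.4%), against 37.0% of the 27305 genes of the table, and GGGCGG in 26 of 28 (92.9%), against 46.2%. The sterol regulatory element consensus TCACNCCAC was found in 1 of the 28, SREBF2, against 1.09% of all genes. ACGTCA, the core of an XBP1s motif, was found in 5 of the 28 (ELOVL5, FADS1, IDI1, INSIG1 and MVD), against 8.62%, and CACGTG, the E-box, in 4 of the 28 (ELOVL5, INSIG1, SC5D and SCAP), against 7.73%. The ER stress element, which holds a CCAAT followed by 9 bases and CCACG, was in none of the 28 genes, against 0.0916% of all genes. CCAAT was present in 7 of 9 promoters of genes that rose with tunicamycin in control cells, in 7 of 9 of genes that fell and in 5 of 9 of the rest. These are matches of letters, some of which overlap the letters of another motif, and not measured binding.

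The promoters of 5 genes on which the comparisons turn are printed from the gene's own strand, up to the base before the start site. They are HMGCS1 and MSMO1, whose response to tunicamycin differed between genotypes, INSIG1 and STARD4, which moved in opposite directions in all 3 genotypes, and SREBF2. Of the 28 genes searched, only SREBF2 held an exact match to the sterol consensus in these 250 bases. Capitals mark CCAAT or its reverse complement and, in SREBF2, also the sterol element. MSMO1 has 4 CCAAT matches (chr4:165327419-165327668, plus strand), HMGCS1 has 2 (chr5:43313413-43313662, minus strand), STARD4 has 2 (chr5:111512536-111512785, minus strand), INSIG1 has 1 (chr7:155297628-155297877, plus strand) and SREBF2 has 1 (chr22:41832855-41833104, plus strand).
MSMO1: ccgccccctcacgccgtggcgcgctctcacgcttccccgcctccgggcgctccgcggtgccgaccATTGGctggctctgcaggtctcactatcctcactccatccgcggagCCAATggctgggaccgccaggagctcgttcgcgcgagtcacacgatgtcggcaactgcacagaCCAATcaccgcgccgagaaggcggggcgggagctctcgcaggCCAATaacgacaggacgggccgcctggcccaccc
HMGCS1: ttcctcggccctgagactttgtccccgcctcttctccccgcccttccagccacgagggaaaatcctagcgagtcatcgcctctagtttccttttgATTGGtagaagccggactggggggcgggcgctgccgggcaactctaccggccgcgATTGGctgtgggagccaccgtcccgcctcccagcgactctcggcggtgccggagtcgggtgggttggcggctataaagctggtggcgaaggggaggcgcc
STARD4: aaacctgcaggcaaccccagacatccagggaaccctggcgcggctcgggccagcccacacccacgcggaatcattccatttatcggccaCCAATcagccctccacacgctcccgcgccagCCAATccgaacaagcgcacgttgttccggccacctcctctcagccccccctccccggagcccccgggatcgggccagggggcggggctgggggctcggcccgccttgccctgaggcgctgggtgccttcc
INSIG1: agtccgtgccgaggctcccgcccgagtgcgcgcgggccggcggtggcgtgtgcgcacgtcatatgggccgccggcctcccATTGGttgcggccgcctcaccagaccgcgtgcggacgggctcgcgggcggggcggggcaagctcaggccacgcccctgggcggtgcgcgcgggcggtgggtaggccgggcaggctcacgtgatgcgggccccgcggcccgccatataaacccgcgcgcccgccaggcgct
SREBF2: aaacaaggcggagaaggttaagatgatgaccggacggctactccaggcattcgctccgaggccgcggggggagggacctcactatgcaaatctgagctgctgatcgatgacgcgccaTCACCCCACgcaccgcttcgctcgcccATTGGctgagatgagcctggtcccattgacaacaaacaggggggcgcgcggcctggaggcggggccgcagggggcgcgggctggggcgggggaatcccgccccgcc

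In hg19, the build of the counts, INSIG1 (ENSG00000186480) spans bases 155089486 to 155101945 of chromosome 7, HMGCS1 (ENSG00000112972) bases 43287572 to 43313614 of chromosome 5, MSMO1 (ENSG00000052802) bases 166248819 to 166264316 of chromosome 4 and STARD4 (ENSG00000164211) bases 110831731 to 110848288 of chromosome 5, by the GENCODE annotation.

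Library totals ran from 9367462 to 13917212 counts. Replicates of a group correlated at r = 0.986 to 0.989 over log2 values, and control with XBP1 knockdown libraries at 0.961 to 0.987. The 6 CARM1 knockout libraries stood apart from the other 12, at 0.730 to 0.775 in the 72 pairs. CARM1 itself was at 165, 162 and 160 CPM (counts scaled to a common library size) in control cells with vehicle and at 73.5, 77.7 and 71.6 in knockout cells, so it was lower but still present. A count at the 3′ end does not read the site that the guide RNA cuts, so it does not test the knockout itself. XBP1 was at 153, 148 and 148 CPM in control cells with tunicamycin and at 69.0, 73.7 and 72.1 in knockdown cells. HSPA5, the chaperone that marks endoplasmic reticulum stress, rose with tunicamycin in all 3 genotypes (log2 fold changes 3.08 in control, 3.77 in CARM1 knockout and 2.98 in XBP1 knockdown cells). Of 10 epithelial and Müllerian markers, MUC16 was at 0 in every library, and WT1 was at 0 in control cells with vehicle and in knockdown cells. With vehicle their summed level was 311 to 332 CPM in control, 131 to 144 in knockdown and 2688 to 2780 in knockout libraries, and 8 of the 9 tested were higher and 1 lower in knockout cells. PAX8 reached no more than 1 count in a control library with vehicle and 497 to 840 counts in the knockout libraries. Of 8 markers of other cell types, 7 had a row and CD3E was at 0 in all groups. With vehicle the sum of the 7 ran from 458 to 506 CPM in control, 286 to 316 in knockdown and 470 to 507 in knockout cells. With tunicamycin the epithelial and Müllerian sum was 463 to 489 CPM in control, 199 to 215 in knockdown and 2265 to 2367 in knockout libraries. The sum over the other cell types was then 324 to 402 CPM in control, 249 to 288 in knockdown and 195 to 219.9 in knockout libraries, so that both sums also differed between treatments in these genotypes, with overlap only for the other cell types in knockdown cells. Within the latter sum, with vehicle, COL1A1 averaged 15.0 CPM in control and 479 CPM in knockout cells, while ACTA2 held 6214 to 6654 counts in control and 45 to 80 in knockout libraries. These differences accompany every comparison of treatments or genotypes below, and their part in those results was not tested. All 18 libraries carry the label A1847, and whether the knockout libraries share the parental line of the other 12 was not tested, so line and knockout cannot be told apart in any comparison of knockout with control cells. In bulk libraries such as these, fewer cells of a kind and less RNA per cell cannot be told apart. The labels do not say that replicates are separate cultures, so p-values measure the spread between these libraries, which may be technical.

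Tunicamycin moved most of the 31 genes, in both directions. In control cells 9 rose and 13 fell, with a median log2 fold change of −0.10, whereas 22.0% of all tested genes rose and 19.9% fell. The share of the 31 genes that rose was 29.0% and the share that fell 41.9%. In CARM1 knockout cells 5 rose and 18 fell, with a median of −0.21, beside 20.6% and 18.8% of all genes. In XBP1 knockdown cells 5 rose and 13 fell, with a median of −0.12, beside 19.2% and 19.0% of all genes. The median over all tested genes was 0.00 in each of these 3 comparisons. Fatty acid genes rose in no genotype, MSMO1, NSDHL and HSD17B7, which act on the methyl groups at carbon 4 of the sterol ring, rose in control cells, and INSIG1 fell while STARD4 rose in every genotype. Most steps were modest, and with a change of at least 1.5-fold also required, control cells kept 6 genes that rose and 2 that fell, INSIG1 and ELOVL6. The share of all tested genes that passes this stricter threshold was not counted.

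**Figure D1:**
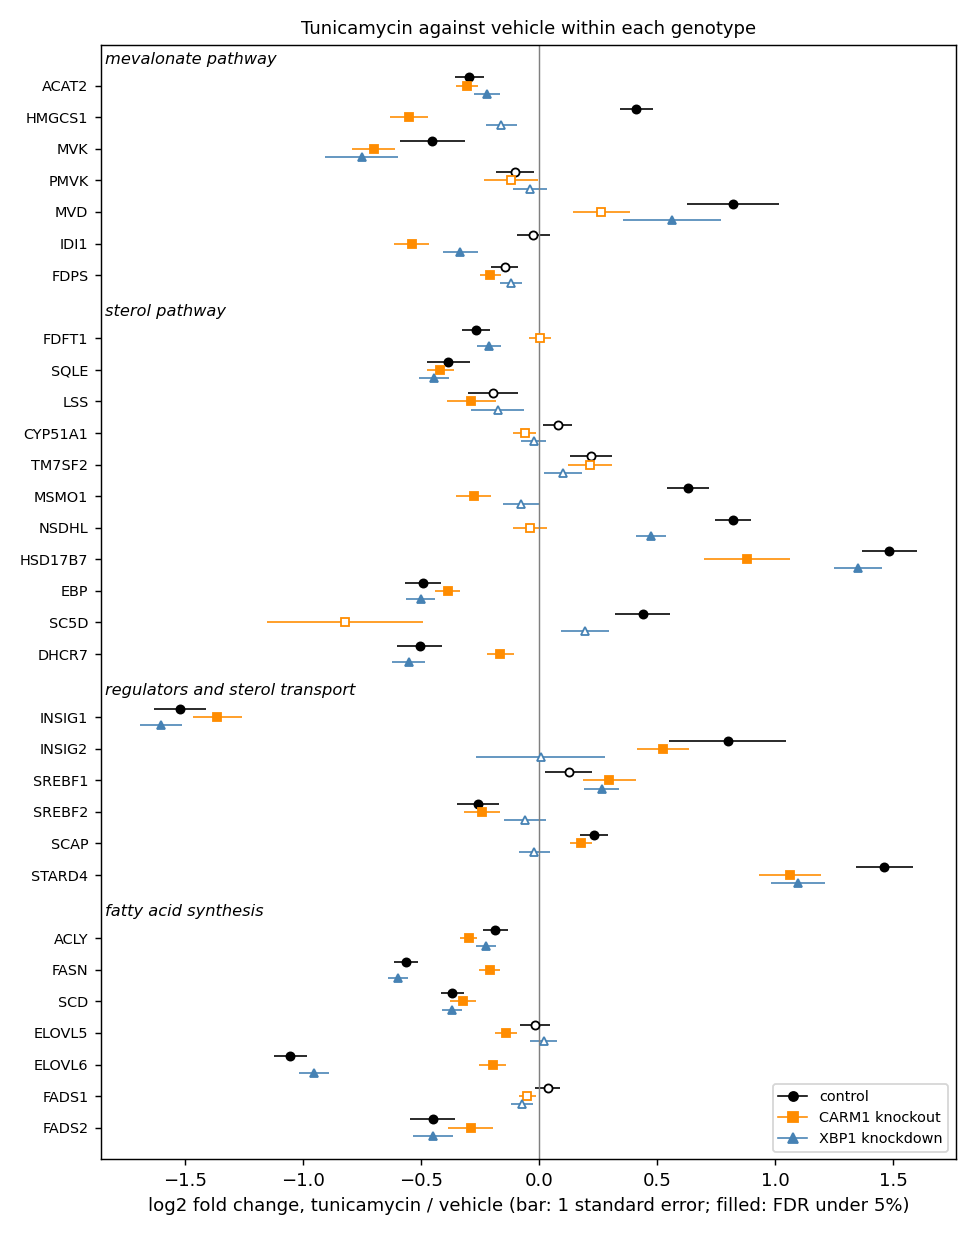
Log2 fold change of each of the 31 genes, tunicamycin against vehicle, in control cells (circles), CARM1 knockout cells (squares) and XBP1 knockdown cells (triangles). Genes are grouped by role, bars are 1 approximate standard error and filled symbols passed an FDR of 5%. INSIG1 lies near −1.5 in all 3 genotypes, and HMGCS1, MSMO1 and NSDHL lie to the right of 0 for control cells and to the left for knockout cells.

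The clearest single fall among the regulators was that of INSIG1, an SREBP target that itself retains SCAP and SREBP. INSIG1 was at 29.1, 28.4 and 27.4 CPM in control cells with vehicle. With tunicamycin it was at 8.90, 9.16 and 11.2 CPM (log2 fold change −1.52 ± 0.11, adjusted p = 1.1e-08). Here and for all log2 fold changes, ± gives an approximate standard error. Knockout libraries held 36.7, 31.4 and 29.3 CPM with vehicle and 11.0, 13.7 and 12.3 with tunicamycin (log2 fold change −1.36 ± 0.10, adjusted p = 5.3e-10). Knockdown libraries held 36.2, 34.1 and 33.8 (vehicle) and 11.6, 11.2 and 11.6 (tunicamycin) (log2 fold change −1.60 ± 0.09, adjusted p = 1.4e-09). No treated library overlapped an untreated one. The difference in this response from control cells was 0.14 ± 0.16 (SE) on the log2 scale in knockout and −0.07 ± 0.14 in knockdown cells, and neither passed the test.

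Its relative INSIG2, which serves the same retention step, was a scarce transcript in control cells, at 2.09, 2.36 and 2.41 CPM with vehicle and 5.07, 3.80 and 3.04 with tunicamycin (log2 fold change 0.80 ± 0.25, adjusted p = 0.016). Without the first treated control library the rise was 0.57 and no longer passed (adjusted p = 0.11). In knockout cells INSIG2 was far more abundant, at 15.8, 14.8 and 16.7 CPM with vehicle and 24.4, 18.5 and 23.4 with tunicamycin, and rose (log2 fold change 0.53 ± 0.11, adjusted p = 5.0e-04). In knockdown cells it was at 4.52, 2.20 and 2.81 (vehicle) and 3.60, 2.90 and 3.06 (tunicamycin) CPM, values that overlapped. Against control cells, INSIG2 was higher in knockout cells under both treatments, by 2.73 with vehicle and 2.49 with tunicamycin on the log2 scale, the largest upward difference among the 31 genes.

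STARD4, a cytosolic carrier that moves cholesterol between membranes, rose with tunicamycin in all genotypes. It went from 9.67, 11.6 and 10.8 to 30.4, 32.7 and 24.8 CPM in control cells (log2 fold change 1.46 ± 0.12, adjusted p = 5.0e-08). The same rise ran from 11.1, 7.71 and 7.56 to 19.1, 17.9 and 17.5 CPM in knockout cells (log2 fold change 1.06 ± 0.13, adjusted p = 7.3e-07), and in knockdown cells from 13.7, 9.93 and 11.9 to 25.7, 24.6 and 26.1 CPM (log2 fold change 1.10 ± 0.11, adjusted p = 1.6e-06). Treated and untreated libraries did not overlap in any genotype.

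The SREBP genes themselves and SCAP moved little with treatment. SREBF2 was at 31.7, 29.4 and 33.0 CPM with vehicle and 24.3, 27.6 and 26.2 with tunicamycin in control cells (log2 fold change −0.26 ± 0.09, adjusted p = 0.027), a call lost in 4 of the 6 fits that each left out 1 library, with adjusted p of 0.057 to 0.083. In knockout cells it was at 41.7, 35.5 and 40.0 (vehicle) and 32.4, 31.5 and 32.6 (tunicamycin) CPM (log2 fold change −0.24 ± 0.08, adjusted p = 0.015, not called without the first vehicle library, adjusted p = 0.095), and in knockdown cells at 29.7, 32.4 and 29.7 (vehicle) and 26.3, 30.6 and 32.1 (tunicamycin) CPM. SREBF1 was at 25.2, 27.8 and 31.2 CPM with vehicle and 27.2, 31.8 and 32.3 with tunicamycin in control cells, a difference of 0.13 that did not pass. It rose in knockdown cells, from 30.2, 28.4 and 28.8 to 33.8, 35.9 and 36.0 CPM (log2 fold change 0.27 ± 0.07, adjusted p = 0.010). Knockout cells held less of it, at 10.4, 10.9 and 10.2 (vehicle) and 11.7, 13.1 and 13.0 (tunicamycin) CPM, and the rise of 0.30 (adjusted p = 0.042) was lost in 5 of 6 fits with a library left out (adjusted p of 0.066 to 0.13). SCAP was at 95.3, 93.9 and 99.3 CPM with vehicle and 107, 118 and 111 with tunicamycin in control cells (log2 fold change 0.23 ± 0.06, adjusted p = 0.0049), at 83.9, 82.6 and 87.0 (vehicle) and 92.1, 91.0 and 96.2 (tunicamycin) in knockout cells (log2 fold change 0.18 ± 0.05, adjusted p = 0.0055) and at 105, 96.2 and 90.2 (vehicle) and 102, 90.8 and 95.7 (tunicamycin) in knockdown cells, where the groups overlapped.

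**Figure D2:**
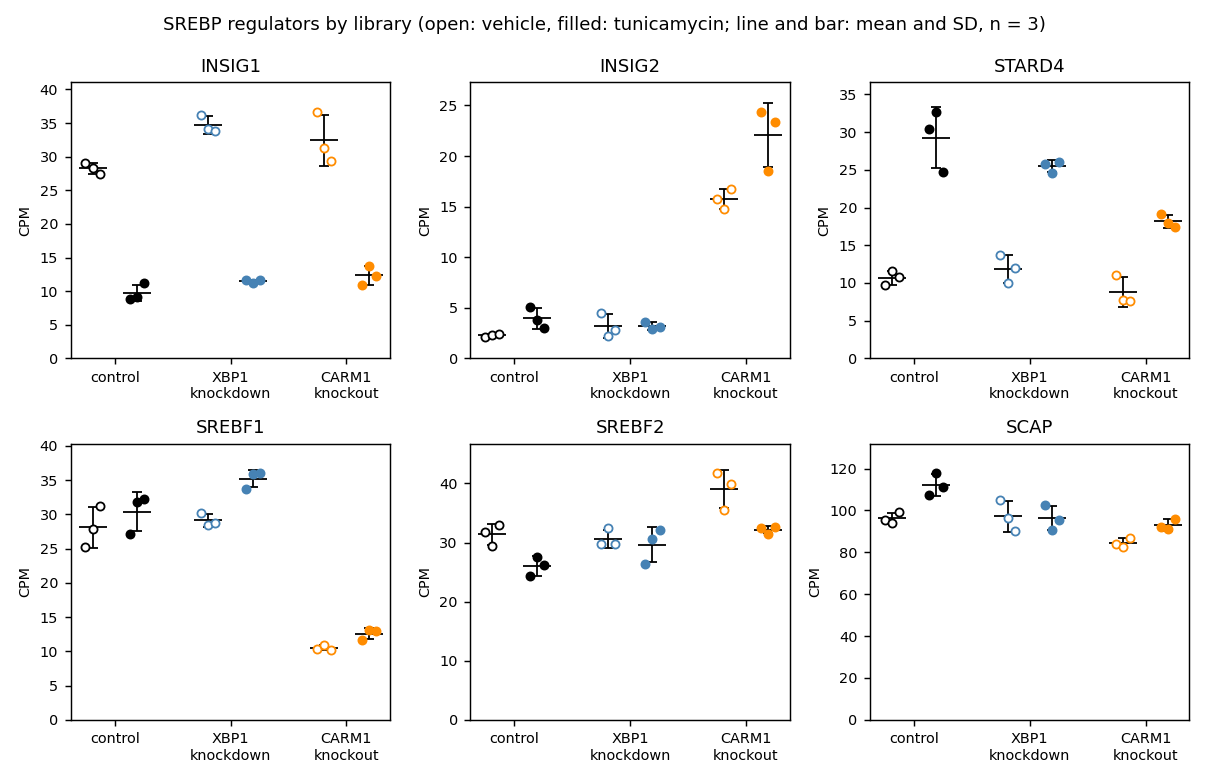
CPM of the 5 SREBP regulators and of STARD4 in each of the 18 libraries, on linear axes from 0. Open points are vehicle, filled points tunicamycin, and lines with bars are the mean and SD of 3 libraries. INSIG1 is lower and STARD4 higher with tunicamycin in each genotype, and INSIG2 and SREBF1 separate knockout cells from the rest.

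In the mevalonate pathway, the response of HMGCS1, the synthase that makes HMG-CoA, differed from that of control cells in both modified genotypes. HMGCS1 went from 83.7, 74.0 and 70.1 to 98.0, 104 and 98.4 CPM in control cells, where every treated library was above every untreated one (log2 fold change 0.41 ± 0.07, adjusted p = 1.6e-04). Knockout cells went the other way, from 57.2, 53.4 and 44.1 to 34.8, 32.3 and 36.6 CPM (log2 fold change −0.55 ± 0.08, adjusted p = 9.4e-06). In knockdown cells it was at 97.7, 88.8 and 90.2 CPM with vehicle and 75.96, 83.8 and 89.6 with tunicamycin, and the difference of −0.16 did not pass (adjusted p = 0.070). The test of the difference itself, an interaction term, gave −0.98 ± 0.12 (SE, adjusted p = 3.2e-06) for knockout and −0.57 ± 0.10 (adjusted p = 0.0031) for knockdown cells. Both comparisons use the same control libraries.

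IDI1, the isomerase that supplies the building block of the isoprenoid chain, was at 59.5, 58.8 and 65.9 CPM with vehicle and 58.7, 60.7 and 60.3 with tunicamycin in control cells, a difference that did not pass (−0.02 ± 0.07). It fell in knockout cells, from 89.0, 99.4 and 73.3 to 55.2, 60.2 and 61.3 CPM (log2 fold change −0.54 ± 0.07, adjusted p = 4.1e-06), and in knockdown cells, from 65.0, 71.7 and 68.5 to 55.8, 48.4 and 59.5 CPM (log2 fold change −0.33 ± 0.08, adjusted p = 0.0022). Only the knockout response differed from control by the interaction test, by −0.53 (adjusted p = 0.0021), while the difference for knockdown cells was −0.30 ± 0.10 (adjusted p = 0.17). With vehicle every knockout library lay above every control library (0.47, adjusted p = 2.2e-04), and with tunicamycin the genotypes overlapped.

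MVD, the decarboxylase of the pathway, rose in control cells from 3.56, 4.57 and 5.56 to 6.49, 8.25 and 9.34 CPM (log2 fold change 0.82 ± 0.19, adjusted p = 0.0026). Its level was 10.02, 10.2 and 11.1 (vehicle) and 11.5, 13.7 and 11.4 (tunicamycin) CPM in knockout cells, a difference that did not pass, and 4.97, 6.03 and 3.86 (vehicle) and 8.89, 5.53 and 7.53 (tunicamycin) CPM in knockdown cells. The knockdown call (0.56, adjusted p = 0.044) was lost in 4 of 6 fits with a library left out, with adjusted p of 0.096 to 0.20. MVK, which phosphorylates mevalonate, fell in every genotype: from 10.4, 10.7 and 10.3 to 6.82, 8.58 and 7.37 CPM in control (log2 fold change −0.45 ± 0.14, adjusted p = 0.014), from 29.4, 26.8 and 27.5 to 18.2, 16.4 and 15.7 in knockout (log2 fold change −0.70 ± 0.09, adjusted p = 1.7e-06) and from 15.6, 12.7 and 10.5 to 7.26, 7.55 and 8.36 in knockdown cells (log2 fold change −0.75 ± 0.15, adjusted p = 0.0011). ACAT2, the thiolase of the first step, also fell in every genotype. It went from 186, 161 and 173 to 140, 141 and 139 CPM in control (−0.30), from 179, 186 and 171 to 136, 135 and 152 in knockout (−0.30) and from 216, 188 and 203 to 166, 177 and 181 in knockdown cells (−0.22). PMVK, the second kinase, did not pass in any genotype, with log2 fold changes of −0.10, −0.12 and −0.04. FDPS, which joins the units into farnesyl diphosphate, fell by 0.21 in knockout cells and was at −0.15 and −0.12 in the others, where it did not pass. In control cells this depended on the setting. FDPS passed there by DESeq2 (adjusted p = 0.042), with other size factors (0.042), without a low-count filter (0.048) and with a stricter filter (0.030). It also passed with all libraries in 1 fit (0.0081), but not with a block for the replicate number.

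In the sterol pathway, the enzymes MSMO1, NSDHL and HSD17B7 take part in turn in removing the methyl groups at carbon 4 of the ring, and these 3 rose with tunicamycin in control cells. CYP51A1, which removes another methyl group of lanosterol, did not pass there (0.08 ± 0.06, adjusted p = 0.33). MSMO1, the oxidase, went from 27.5, 27.2 and 30.9 to 44.1, 39.9 and 47.3 CPM in control cells (log2 fold change 0.63 ± 0.09, adjusted p = 2.1e-05). Knockout cells showed a fall, from 53.1, 53.4 and 43.5 to 38.7, 40.6 and 42.3 CPM (log2 fold change −0.28 ± 0.07, adjusted p = 0.0045), and in knockdown cells it was at 32.2, 31.0 and 35.4 (vehicle) and 32.3, 31.4 and 30.4 (tunicamycin) CPM, which overlapped. Its response differed from that of control cells by −0.92 ± 0.12 in knockout (adjusted p = 1.0e-05) and by −0.70 ± 0.12 in knockdown cells (adjusted p = 0.0019). MSMO1 and HMGCS1 were the 2 genes of the 31 with an interaction call for XBP1 knockdown.

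NSDHL, the dehydrogenase, went from 41.3, 42.7 and 40.2 to 65.5, 78.4 and 73.5 CPM in control cells (log2 fold change 0.82 ± 0.08, adjusted p = 2.3e-07) and from 38.5, 39.4 and 39.6 to 56.9, 53.6 and 53.6 in knockdown cells (log2 fold change 0.47 ± 0.06, adjusted p = 2.4e-05). Knockout libraries held 37.6, 38.6 and 35.5 CPM with vehicle and 33.7, 37.6 and 35.0 with tunicamycin, with no call. Its interaction was −0.88 ± 0.10 for knockout cells (adjusted p = 3.2e-06) and −0.34 ± 0.10 for knockdown cells (adjusted p = 0.086), which passed only without the first treated control library (adjusted p = 0.034). HSD17B7, the ketoreductase, rose in all 3 genotypes. It went from 7.89, 9.65 and 9.24 to 23.6, 23.9 and 26.9 CPM in control (log2 fold change 1.48 ± 0.12, adjusted p = 2.5e-08), from 14.6, 12.1 and 12.8 to 34.6, 36.3 and 30.5 in knockdown (log2 fold change 1.35 ± 0.10, adjusted p = 4.5e-08) and from 5.98, 4.11 and 3.21 to 7.64, 7.86 and 8.98 in knockout cells (log2 fold change 0.88 ± 0.18, adjusted p = 5.1e-04). The interaction of HSD17B7 for knockout cells did not pass. It passed in 2 of 12 fits with a library left out, where it ran from −0.78 to −0.33. With all libraries in 1 fit it also passed (−0.63, adjusted p = 0.038). A near copy, HSD17B7P2, carried a mean of 43.2 counts beside 199 for HSD17B7, and reads could have been divided between them.

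**Figure D3:**
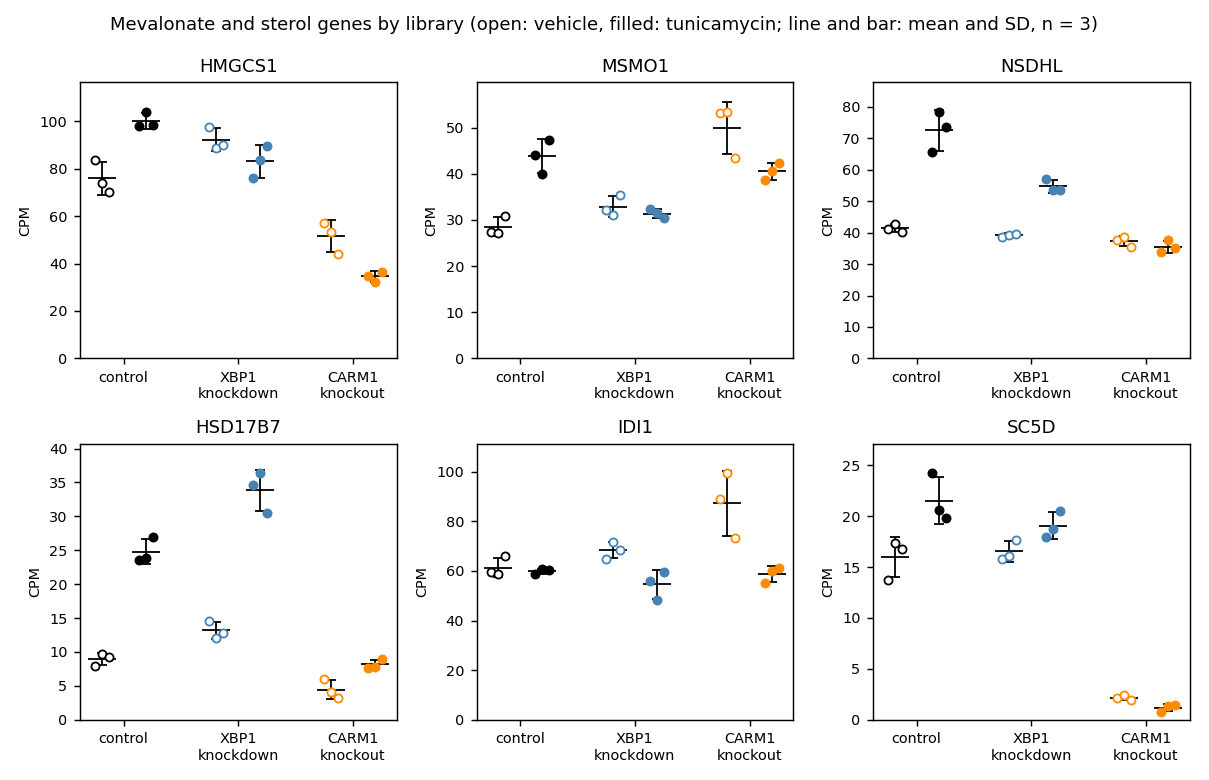
CPM of 6 mevalonate and sterol genes in each of the 18 libraries, on linear axes from 0. Open points are vehicle, filled points tunicamycin, and lines with bars are the mean and SD of 3 libraries. HMGCS1 and MSMO1 rise with tunicamycin in control cells and fall in knockout cells, and SC5D is near the bottom of its axis in knockout cells.

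Several other enzymes of the sterol pathway fell instead. EBP, the sterol isomerase, fell in each genotype, from 79.4, 72.1 and 83.9 to 51.5, 60.2 and 54.5 CPM in control (log2 fold change −0.49 ± 0.08, adjusted p = 7.4e-05), from 99.4, 96.9 and 87.2 to 70.9, 69.3 and 72.1 in knockout (−0.39) and from 87.1, 81.6 and 85.5 to 64.1, 58.6 and 57.4 in knockdown cells (−0.50). SQLE, the epoxidase that starts ring closure, fell likewise, from 65.3, 67.0 and 57.3 to 54.5, 42.0 and 47.5 CPM in control (log2 fold change −0.38 ± 0.09, adjusted p = 0.0026), from 82.3, 81.1 and 71.9 to 56.9, 56.6 and 59.0 in knockout (−0.42) and from 68.1, 68.2 and 63.8 to 48.9, 47.7 and 51.2 in knockdown cells (−0.44). No treated library of either gene overlapped an untreated one of its genotype. DHCR7, the reductase of the last step, fell from 35.8, 32.3 and 40.7 to 24.6, 25.7 and 25.8 CPM in control (log2 fold change −0.50 ± 0.09, adjusted p = 3.8e-04) and from 43.4, 42.1 and 43.4 to 29.9, 30.4 and 28.1 in knockdown cells (log2 fold change −0.55 ± 0.07, adjusted p = 1.5e-05). In knockout cells it went from 55.7, 54.0 and 53.0 to 46.1, 47.7 and 48.1 CPM, a smaller fall of 0.16 that was lost in 4 of 6 fits with a library left out (adjusted p of 0.055 to 0.11). The interaction of 0.32 (adjusted p = 0.037) was lost in 5 of 12 such fits, each without 1 knockout library, with adjusted p of 0.051 to 0.076.

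SC5D, a sterol desaturase, rose from 13.7, 17.4 and 16.8 to 24.2, 20.5 and 19.8 CPM in control cells (log2 fold change 0.44 ± 0.12, adjusted p = 0.0060). In knockout cells it was at low levels, 2.10, 2.43 and 1.95 CPM with vehicle and 0.772, 1.35 and 1.43 with tunicamycin, and in knockdown cells it was at 15.8, 16.1 and 17.7 (vehicle) and 17.9, 18.7 and 20.5 (tunicamycin). The responses in those 2 genotypes did not pass, and the interaction for knockout cells was −1.28 ± 0.30 (adjusted p = 0.0032). FDFT1, squalene synthase, fell from 145, 156 and 160 to 125, 130 and 125 CPM in control (log2 fold change −0.27 ± 0.06, adjusted p = 0.0013) and from 161, 153 and 166 to 136, 138 and 143 in knockdown cells (−0.21), but was at 141, 129 and 133 (vehicle) and 127, 132 and 135 (tunicamycin) in knockout cells, which overlapped (interaction 0.25, adjusted p = 0.016). Of the remaining 3 sterol enzymes, CYP51A1 and TM7SF2 did not pass in any genotype, with log2 fold changes of −0.06 to 0.08 and 0.10 to 0.22. LSS fell by 0.29 in knockout cells, a call lost in 4 of 6 fits with a library left out (adjusted p of 0.064 to 0.16).

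Fatty acid genes went one way only. With tunicamycin 5 of the 7 tested fell in control cells, 6 of 7 in knockout cells and 5 of 7 in knockdown cells, and 0 rose by edgeR, by DESeq2 or at an unadjusted p under 0.05. The median log2 fold change was −0.37 in control, −0.21 in knockout and −0.37 in knockdown cells. ELOVL6, which elongates palmitate, fell steeply in control cells, from 107, 112 and 106 to 54.9, 47.1 and 52.9 CPM (log2 fold change −1.05 ± 0.07, adjusted p = 3.1e-09), and in knockdown cells, from 106, 101 and 111 to 55.5, 50.6 and 58.3 CPM (log2 fold change −0.95 ± 0.06, adjusted p = 1.3e-08). Knockout libraries started lower, at 60.3, 61.0 and 57.4 CPM, and held 48.7, 51.8 and 51.7 CPM with tunicamycin (log2 fold change −0.20 ± 0.06, adjusted p = 0.0089). The interaction of 0.84 ± 0.09 (adjusted p = 5.8e-07) was the largest positive one among the 31 genes, and the treated libraries of control and knockout cells overlapped.

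FASN, the fatty acid synthase, fell from 489, 505 and 507 to 322, 348 and 338 CPM in control (log2 fold change −0.56 ± 0.05, adjusted p = 1.6e-07), from 542, 517 and 506 to 338, 352 and 349 in knockdown (log2 fold change −0.60 ± 0.04, adjusted p = 1.8e-08) and from 176, 165 and 164 to 138, 142 and 146 in knockout cells (log2 fold change −0.21 ± 0.04, adjusted p = 3.8e-04). The smaller fall in knockout cells gave an interaction of 0.33 (adjusted p = 6.4e-04). SCD, which introduces the double bond of oleate, fell in each genotype, from 541, 527 and 537 to 402, 407 and 425 CPM in control (−0.37), from 572, 539 and 569 to 424, 450 and 435 in knockdown (−0.37) and from 180, 153 and 160 to 121, 127 and 137 in knockout cells (−0.32). ACLY, which makes cytosolic acetyl-CoA from citrate, fell from 270, 257 and 262 to 230, 225 and 233 CPM in control (−0.19, adjusted p = 0.0082, and 0.050 without the first vehicle library). It fell from 221, 224 and 216 to 173, 177 and 175 CPM in knockout (−0.30) and from 273, 275 and 275 to 235, 239 and 234 in knockdown cells (−0.23).

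FADS2, a desaturase of polyunsaturated fatty acids, fell from 125, 132 and 155 to 87.7, 116 and 95.3 CPM in control (log2 fold change −0.45 ± 0.09, adjusted p = 9.3e-04) and from 132, 108 and 99.1 to 79.8, 86.9 and 82.6 in knockdown cells (−0.45). In knockout cells it went from 34.1, 29.6 and 28.5 to 27.9, 22.1 and 24.1 CPM, a fall of 0.29 that was lost in 3 of 6 fits with a library left out (adjusted p of 0.058 to 0.13). ELOVL5, an elongase of the same branch, was at 102, 99.4 and 107 (vehicle) and 106, 95.2 and 101 (tunicamycin) CPM in control and at 100, 112 and 109 (vehicle) and 111, 105 and 112 (tunicamycin) in knockdown cells. It fell in knockout cells, from 138, 149 and 131 to 123, 126 and 122 CPM (log2 fold change −0.14 ± 0.05, adjusted p = 0.017), a call that was lost without the second vehicle or the third treated knockout library (adjusted p = 0.095 and 0.060). FADS1 did not pass in any genotype, with log2 fold changes of −0.07 to 0.04. FADS2 overlaps FEN1 on the same strand and FADS1 on the other, and TM7SF2 overlaps VPS51, so their counts may hold reads of the neighbour. On the opposite strand ACAT2 overlaps TCP1, MVK overlaps MMAB, CYP51A1 overlaps AKAP9 and SREBF1 overlaps RAI1, and whether counting used strand is not given in the sources used here.

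**Figure D4:**
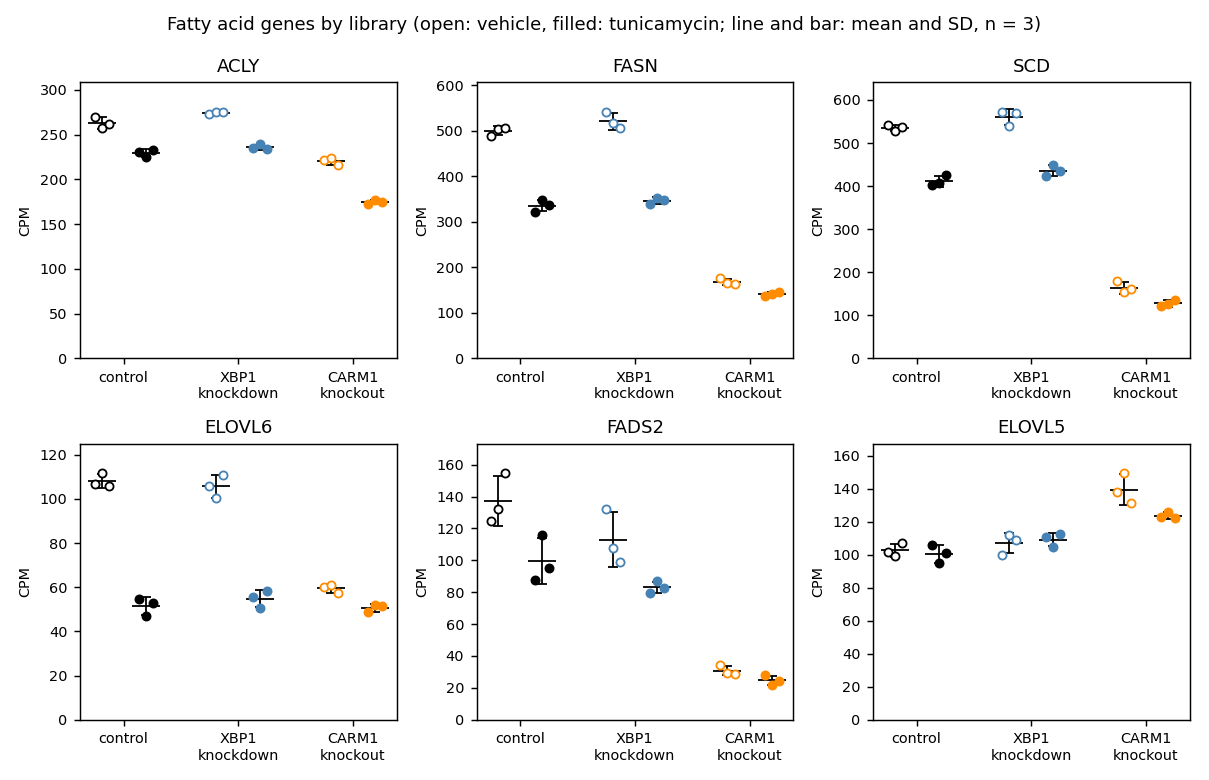
CPM of 6 fatty acid genes in each of the 18 libraries, on linear axes from 0. Open points are vehicle, filled points tunicamycin, and lines with bars are the mean and SD of 3 libraries. FASN, SCD and FADS2 are lower in knockout cells than in the other genotypes under both treatments, and ELOVL6 in control and knockdown cells falls to about the knockout level with tunicamycin.

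CARM1 knockout cells differed from control cells in most of the 31 genes, as they did in most genes. With vehicle 10 were higher and 16 lower, with a median log2 difference of −0.20, where 37.5% of all tested genes were higher and 36.9% lower. With tunicamycin 9 were higher and 16 lower, with a median of −0.15, where 38.4% were higher and 36.8% lower. The shares of the 31 genes that were higher, 32.3% and 29.0%, thus lay below those of all genes and the share that was lower, 51.6% under each treatment, above them. With vehicle the largest falls were in SC5D (−2.92 with vehicle and −4.15 with tunicamycin), FADS2 (−2.20 and −2.01), SCD (−1.75 and −1.67) and FASN (−1.62 and −1.23). Their approximate standard errors were 0.05 to 0.18, and the value of SC5D with tunicamycin rests on 9 to 18 counts in knockout libraries. With tunicamycin SC5D, FADS2 and SCD again led, followed by HSD17B7 (−1.60), HMGCS1 (−1.53) and PMVK (−1.39). SREBF1 was lower by 1.46 and 1.26, and its part in these differences was not tested. ACLY was lower by smaller steps (−0.30 and −0.38). In the fatty acid group 5 of 7 were lower under each treatment, FADS1 only with tunicamycin (−0.15), and ELOVL5 was higher (0.40 and 0.30). ELOVL6 was lower with vehicle (−0.90, adjusted p = 6.8e-10) and at −0.02 ± 0.07 with tunicamycin.

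Enzymes of the same pathway stood on opposite sides in knockout cells. Of the kinases that act in succession on mevalonate, MVK was higher (log2 fold change 1.37 ± 0.10, adjusted p = 3.3e-09 with vehicle) and PMVK, at 40.0, 42.4 and 42.5 CPM in control and 15.6, 17.5 and 15.6 in knockout cells with vehicle, was lower (log2 fold change −1.40 ± 0.09, adjusted p = 5.9e-10). With tunicamycin PMVK was at 35.4, 38.8 and 41.2 CPM in control, 15.8, 12.2 and 15.9 in knockout and 46.8, 42.2 and 41.7 in knockdown cells, the last after 46.5, 42.5 and 44.6 with vehicle. MVD was higher by 1.14 with vehicle and 0.60 with tunicamycin, and FDPS lower by 0.57 and 0.61. Among sterol enzymes DHCR7 (0.53 and 0.90), EBP (0.23 and 0.36) and SQLE (0.27 and 0.27) were higher under both treatments. HSD17B7 (−1.02 and −1.60), TM7SF2 (−0.80 and −0.78) and CYP51A1 (−0.20 and −0.32) were lower. MSMO1 was higher with vehicle (0.77) and at −0.11 ± 0.08 with tunicamycin, without a call. HMGCS1 was lower by 0.59 with vehicle and by 1.53 with tunicamycin. FDFT1 was lower with vehicle (−0.24), and STARD4 with tunicamycin (−0.68, against −0.31 without a call with vehicle, which passed without the first knockout library). NSDHL was lower by 1.03 with tunicamycin, and its vehicle difference of −0.19 (adjusted p = 0.023) was lost in 4 of 6 fits with a library left out and also by DESeq2 (adjusted p = 0.14). SREBF2 was higher (0.27 and 0.31) and SCAP lower (−0.23 and −0.26), both by small steps. The vehicle call of SREBF2 was lost without the first knockout library (adjusted p = 0.064), and INSIG1, higher by 0.35 with tunicamycin, was lost in 4 of 6 such fits (adjusted p of 0.062 to 0.15).

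**Figure D5:**
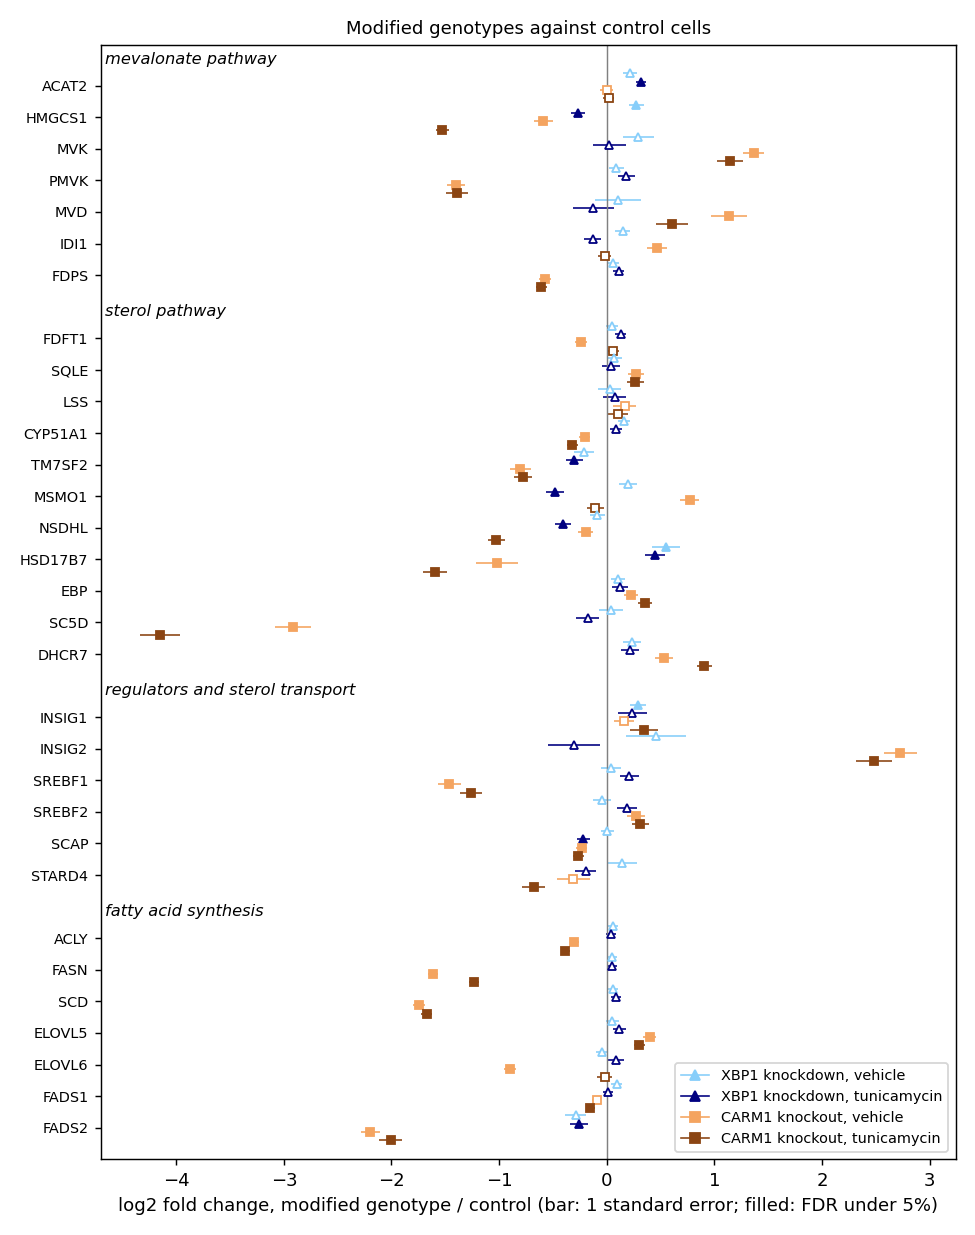
Log2 fold change of each of the 31 genes in XBP1 knockdown (triangles) and CARM1 knockout cells (squares) against control cells, with vehicle (pale) and tunicamycin (dark). Bars are 1 approximate standard error and filled symbols passed an FDR of 5%. Knockdown symbols lie close to 0, within −0.48 and 0.55, while knockout symbols range from −4.15 for SC5D to 2.73 for INSIG2.

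The response to tunicamycin itself differed between knockout and control cells for 9 of the 31 genes, by the interaction term. It was more positive for 4 (FDFT1, DHCR7, FASN and ELOVL6) and more negative for 5 (HMGCS1, IDI1, MSMO1, NSDHL and SC5D), beside 10.5% and 12.4% of all genes. These make 12.9% and 16.1% of the 31 genes, near the shares of all genes. The 5 are mevalonate and sterol enzymes, and 4 of them rose in control cells. The 4 with a more positive response fell in control cells, and in knockout cells each fell less or, for FDFT1, stood at 0.00. The interaction subtracts the control response, so these directions in control cells are partly built into the calls.

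XBP1 knockdown changed few of the genes. With vehicle 3 were higher and 0 lower by edgeR, beside 2.07% and 3.03% of all genes. Those shares themselves ran from 0.843% to 3.35% and from 1.67% to 3.78% with 1 library left out, lowest without the second control library, and for at least 1 direction they moved by over 1.5 times without any 1 of the 6 libraries except the first knockdown library. DESeq2 also called 3 higher and 0 lower, but not the same 3. It gained ACAT2 (adjusted p = 0.039) and lost INSIG1 (0.073). At an unadjusted p under 0.05 by edgeR there were 8 higher and 2 lower. The 3 called by edgeR were HMGCS1 (log2 fold change 0.27 ± 0.07, adjusted p = 0.036), HSD17B7 (log2 fold change 0.55 ± 0.13, adjusted p = 0.022) and INSIG1 (log2 fold change 0.29 ± 0.08, adjusted p = 0.042). With 1 library left out, between 0 and 2 genes were called higher. INSIG1 was lost in all 6 such fits, HMGCS1 in 5 (adjusted p of 0.063 to 0.15) and HSD17B7 in 2, without the first control or the first knockdown library (adjusted p = 0.10 and 0.083). With tunicamycin 2 were higher and 6 lower, beside 6.99% and 8.55% of all genes, which makes 6.45% and 19.4% of the 31. Without the third control library the shares of all genes were 3.56% and 5.23%, the lowest with 1 library left out, and the share higher also moved by over 1.5 times without the second or the third knockdown library (to 794 and 724 genes, from 1210). The 2 higher were HSD17B7 (log2 fold change 0.45 ± 0.09, adjusted p = 0.0035) and ACAT2 (log2 fold change 0.32 ± 0.05, adjusted p = 4.6e-04).

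The 6 that were lower in treated knockdown cells included 3 sterol enzymes. The 6 were MSMO1 (log2 fold change −0.48 ± 0.08, adjusted p = 7.0e-04), NSDHL (log2 fold change −0.40 ± 0.07, adjusted p = 0.0012), TM7SF2 (log2 fold change −0.30 ± 0.08, adjusted p = 0.020), HMGCS1 (log2 fold change −0.27 ± 0.06, adjusted p = 0.010), FADS2 (log2 fold change −0.26 ± 0.08, adjusted p = 0.044) and SCAP (log2 fold change −0.22 ± 0.06, adjusted p = 0.025). MSMO1, NSDHL and HMGCS1 are genes that rose with tunicamycin in control cells, and the treated knockdown libraries lay below every treated control library for all 3. Leaving out the third control or the second knockdown library left 3 calls, since TM7SF2 (adjusted p = 0.12 and 0.077), SCAP (0.081 and 0.11) and FADS2 (0.086 and 0.054) were then lost. SCAP was lost in 4 of 6 such fits in all and FADS2 in 5. The response to tunicamycin differed from control cells for HMGCS1 and MSMO1, both more negative, beside 1.67% of all genes in that direction. For a more positive response 0 of the 31 were called by edgeR or DESeq2 or at an unadjusted p under 0.05, beside 0.364% of all genes, a share that ran from 0.139% to 0.566% with 1 library left out. For the fatty acid genes the knockdown differences lay between −0.29 and 0.09 with vehicle and between −0.26 and 0.12 with tunicamycin.

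Other genes of these pathways were counted from lists, and their counts are to be set beside the shares of all tested genes that rose and fell with tunicamycin, 22.0% and 19.9% in control, 20.6% and 18.8% in knockout and 19.2% and 19.0% in knockdown cells. Of 6 genes of SREBP processing and sterol-regulated degradation, 3 rose with tunicamycin in control cells: the proteases MBTPS1 (0.31) and MBTPS2 (0.29), which release SREBP in the Golgi, and RNF139 (0.29). These 3 were named after their values were seen. None of the 6 fell by edgeR or DESeq2 or at an unadjusted p under 0.05. In knockout cells 0 rose and 2 fell by edgeR, 0 and 1 by DESeq2, and 1 and 2 at an unadjusted p under 0.05. In knockdown cells 1 rose and 0 fell by edgeR, 0 and 0 by DESeq2, and 1 and 0 at an unadjusted p under 0.05. Of 17 tested genes of acetyl-CoA supply, elongation, desaturation and acyl-CoA formation, 6 rose (35.3%) and 5 fell (29.4%) in control cells. ME1, the malic enzyme that supplies NADPH, rose by 1.42 in control and 1.01 in knockdown cells and was at −0.26 in knockout cells, where it fell, with an interaction of −1.70 (adjusted p = 1.3e-08). SCD5, a second desaturase, fell in all 3 genotypes (−1.04 in control, −0.92 in knockout and −1.40 in knockdown cells), as did SLC25A1, the citrate carrier (−0.90, −0.77 and −1.07). In knockout cells 3 of the 17 rose (17.6%) and 6 fell (35.3%), and in knockdown cells 4 rose (23.5%) and 6 fell (35.3%), so the shares that rose in these 2 genotypes lay near those of all genes.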

How the data were processed

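Libraries were 3′ mRNA-seq of cells labelled A1847, read as 75 nt single reads. Per the study's methods, the authors aligned reads to hg19 with bowtie2, estimated counts per Ensembl gene with RSEM (version 1.2.3 in the submitters' processing notes, while the methods name another version) and compared groups with DESeq2 at an FDR of 5%. The deposited values are these expected counts, not normalized, and were rounded to whole numbers here. Whether counting used strand is not given in the sources used here. Symbols were paired with 55501 of the 57736 gene identifiers through a table of gene names.

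The quasi-likelihood test of edgeR 4.0.16 was run under R 4.3.3 (TMM factors, only the compared groups in a fit, interactions on 4 groups), with a minimum count of 10 by filterByExpr and Benjamini-Hochberg adjustment over 17317 genes. A gene was called, or said to rise or fall, at an adjusted p under 0.05. DESeq2 1.42.0 was an alternative. CPM are scaled by the TMM factors and are not divided by transcript length, so levels are not compared between genes. SE was worked back from the log2 fold change and its quasi-likelihood F statistic, and was not taken from the fitted coefficient. It is therefore approximate, and may be too small where counts are low. The steps were tested on simulated data. Replicates of a group differed by more than counting noise (chi-square per degree of freedom 1.84 to 6.89), so none was a copy of another.

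Members, lists and tests were chosen with earlier results of these data known. Named with values in every library were, in each role and comparison, up to 2 called genes in each direction with the largest change, and always INSIG1, INSIG2, SREBF1, SREBF2 and SCAP. Of other lists up to 2 called genes in each direction could be named. The list of SREBP processing departs from this, since all 3 genes that rose in control cells were named. Comparisons that share control libraries are not independent, and no list was given a set test. An item of the lists of other genes is not reported here, and the counts leave it out.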

Additional observations from a re-analysis of the deposited data

Results flagged for a closer look

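The response of 9 genes to tunicamycin differed between CARM1 knockout and control cells by an interaction term (edgeR, adjusted over all tested genes). More positive were 12.9% of the 31 genes and more negative 16.1%, near the 10.5% and 12.4% of all tested genes. On the log2 scale, knockout minus control, the differences were −0.98 for HMGCS1, −0.53 for IDI1, −0.92 for MSMO1, −0.88 for NSDHL, −1.28 for SC5D, 0.25 for FDFT1, 0.32 for DHCR7, 0.33 for FASN and 0.84 for ELOVL6. The knockout libraries also differed from control cells in markers of lineage, and the part of that difference in these values was not tested. Between XBP1 knockdown and control cells the response differed for HMGCS1 (−0.57) and MSMO1 (−0.70), beside 1.67% of all tested genes with a more negative response. For both genes the 3 knockdown libraries with vehicle lay above all control libraries with vehicle, and the 3 with tunicamycin lay below all treated control libraries. With vehicle HMGCS1 was also called higher in knockdown cells, a call that changed in 5 of 6 fits with a library left out. In no group was a single library tested as an extreme value, since groups held 3.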

How the results depend on the processing

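Alternatives were other size factors, DESeq2, no filter or a stricter filter on low counts, all libraries in 1 fit, a block for the replicate number, a minimum change of 1.5-fold, and each replicate left out in turn. No log2 fold change with a call in either fit turned its sign. Requiring 1.5-fold moved the counts of genes higher and lower the most: to 2 lower for tunicamycin in control cells, 2 higher and 2 lower in knockout cells, 2 higher and 4 lower in knockdown cells, 4 higher and 10 lower for knockout against control with vehicle, 4 higher with tunicamycin, 0 higher for knockdown with vehicle, 0 higher and 0 lower with tunicamycin, 1 more positive interaction for knockout and 1 more negative for knockdown. The share of all tested genes at 1.5-fold was not counted, so these counts cannot be set beside it. With all libraries in 1 fit, 3 genes rose with tunicamycin in knockout cells and 6 were higher in knockdown cells with vehicle. Without a filter, 1 gene (FADS2) was lower in knockdown cells with vehicle. With 1 library left out, the knockdown counts with vehicle ran from 0 to 2 higher and from 0 to 1 lower, and those with tunicamycin from 3 to 6 lower, with 2 higher each time. For tunicamycin they ran from 9 to 10 higher and 11 to 14 lower in control, 4 to 5 and 14 to 18 in knockout, and 4 to 5 and 13 to 14 in knockdown cells. Against control, knockout cells had 9 to 10 higher and 15 to 16 lower with vehicle, and 8 to 9 and 16 with tunicamycin. Interactions numbered 3 to 4 and 5 to 6 for knockout, and 0 and 2 to 3 for knockdown. Over all tested genes, samples with the same replicate number did not deviate together (r = −0.0513 to 0.0451). Pairs with different numbers ran from −0.0835 to 0.0945. A batch that acts on part of the genes was not tested. With the replicate block, control cells had 10 genes higher and 13 lower with tunicamycin, and 5 calls changed across all comparisons: TM7SF2 in control cells was gained (adjusted p = 0.045), SREBF1 in knockout (0.060) and MVD in knockdown cells (0.065) were lost, and of the vehicle comparison of knockdown cells ACAT2 was gained (0.032) and INSIG1 lost (0.067). Gene by gene, 1624 values under the other alternatives kept their side of the threshold, 21 gained a call and 20 lost one. Scaling by other size factors moved the median of all genes by at most 0.0386. Low counts limit what can be said of INSIG2 and MVD in control and knockdown cells and of SC5D and HSD17B7 in knockout cells.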

Other observations

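Genes next to the pathway were counted in the same way, beside 22.0% of all tested genes that rose with tunicamycin and 19.9% that fell in control cells, 20.6% and 18.8% in knockout and 19.2% and 19.0% in knockdown cells. Of 10 genes of sterol transport, esterification and LXR response, 3 rose and 3 fell in control cells, 2 rose and 4 fell in knockout cells, and 2 rose and 3 fell in knockdown cells. The shares that rose in knockout and knockdown cells lay near those of all genes. OSBP, a lipid exchanger at contacts of the endoplasmic reticulum, rose by 1.61 in control, 1.13 in knockout and 1.20 in knockdown cells, and the response was smaller in both modified genotypes (interactions −0.49 and −0.40, adjusted p = 1.1e-04 and 0.0099). TMEM97, a regulator of cellular cholesterol, fell in all 3 (−0.35 in control, −0.58 in knockout and −0.50 in knockdown cells).

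Of 9 genes of triglyceride synthesis and storage, 1 rose and 3 fell in control cells, 2 rose and 2 fell in knockout cells, and 1 rose and 5 fell in knockdown cells. In knockout cells the 22.2% in each direction lay near the shares of all genes, and the 5 that fell in knockdown cells make 55.6%. DGAT2, which catalyses the last step, averaged 10.3 ± 1.13 CPM with vehicle and 1.57 ± 0.365 with tunicamycin in control cells (SD, n = 3), a fall of 2.69 that was −2.21 in knockout and −1.83 in knockdown cells. DGAT1, the other enzyme of that step, rose in control (0.92) and knockout cells (0.52) and was at 0.51 in knockdown cells without a call.

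Of 7 genes of the isoprenoid branch, which uses farnesyl diphosphate for other products, 5 rose and 1 fell in control cells, 3 rose and 1 fell in knockout cells, and 4 rose and 0 fell in knockdown cells by edgeR, by DESeq2 and at an unadjusted p under 0.05. DHDDS, a subunit of the enzyme that makes the chain of dolichol, the lipid carrier of N-linked glycans, rose in all 3 (0.73, 0.48 and 0.48).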
